A study of Mus musculus with 10 samples.

Results

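MUC1 and ST6GALNAC2 had lower deposited log2 signals with estrogen in estrogen-receptor-positive human breast cancer xenografts. Mice that kept an estrogen pellet (E) were compared with mice whose pellet had been removed (EWD). In primary tumors the ST6GALNAC2 difference was lost after quantile normalization (0.02). In lymph node metastases neither gene passed the adjusted threshold in the main fit (limma adjusted p 0.0875). The set described here holds 9 human genes: 6 transmembrane mucins (MUC1, MUC4, MUC13, MUC15, MUC16 and MUC20), 2 secreted gel-forming mucins (MUC2 and MUC5B) and the sialyltransferase ST6GALNAC2. They were found through the 21 probe sets that the platform's annotation assigns to exactly 1 of these symbols, of 61359 probe sets on the array. All 9 genes passed the filter on low signal, among 17170 genes tested of 19556 named.

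Mucins are heavily O-glycosylated proteins of epithelial surfaces. Transmembrane mucins stand on the cell surface, and MUC1 is the best known of them in luminal breast epithelium and in breast cancer. Gel-forming mucins are secreted and make mucus. GALNT enzymes start the glycans by adding GalNAc to serine or threonine. C1GALT1, with its chaperone C1GALT1C1, extends GalNAc to core 1, and ST6GALNAC enzymes add sialic acid, which on an unextended GalNAc makes the sialyl-Tn antigen. ST6GALNAC1 is regarded as the main sialyl-Tn enzyme, while ST6GALNAC2 also acts on core 1 glycans.

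The 10 arrays came from 6 female nu/nu mice aged 20 weeks, all of which had received an estrogen pellet. Axillary lymph node metastases were measured in 3 E mice (6, 11 and 14) and 3 EWD mice (9, 10 and 19), and primary mammary gland tumors in 2 E mice (11 and 14) and 2 EWD mice (10 and 19). EWD mice had been without the pellet for 1 week. Cells were laser-captured from frozen sections and their RNA was amplified by PCR. The cell line is not given in the sources used here, and the labels' organism field names the mouse host although the probe sets are human. Each mouse gave 1 array per site, so the mouse is the replicate, and in groups of 2 the SD rests on 2 values. Arrays carry no counts, so precision here depends on how many arrays a group has. Nu/nu hosts lack mature T cells, and host RNA can reach human probe sets only by cross-hybridization.

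The arrays did not share 1 distribution. Their medians lay between 2.7 and 2.83, but the 99th percentiles were 9.44 and 10.04 on the E primary tumor arrays and 11.39 to 11.67 on the other 8. In primary tumors, genes with a mean signal over 8 had a median E minus EWD difference of -1.57, and 33.2% of those 2539 genes were called lower or higher, against 1.09% of genes with a mean below 4. After quantile normalization, which gives every array the same distribution, the median of the over-8 genes was -0.12 and 2.13% were called. MUC1 and ST6GALNAC2 both have means over 8, so their main primary tumor differences are given on both scales. Differences from the other alternative fits and from the second MUC1 probe set are given as deposited only. The mean of 7 luminal tumor epithelium markers, a check on the captured cells, was 9.21 to 10.27 in E and 10.37 to 10.59 in EWD lymph node metastases. In primary tumors it was 8.15 to 8.37 in E and 10.36 to 10.42 in EWD (9.24 to 9.35 and 10.13 to 10.14 after quantile normalization). ESR1, the estrogen receptor gene and 1 of the 7, had lymph node means of 8.30 in E and 11.47 in EWD. Its E values there were 9.22, 5.44 and 10.24 in mice 6, 11 and 14, so mouse 11 lowered that mean. In lymph node metastases KRT18 had 13.11 and 13.38, EPCAM 11.31 and 11.80, CDH1 11.13 and 11.64, and GATA3 11.57 and 12.32. The deposited E and EWD means lay further apart in primary tumors. They were 8.15 and 11.97 for ESR1, 11.50 and 12.95 for KRT18, and 8.66 and 12.19 for EPCAM. CDH1 had 9.01 and 12.13 there, and GATA3 10.02 and 12.71. Group means of KRT8 and KRT19 are not given here. Among markers of other cells, basal and myoepithelial means were 4.13 to 5.07 in E and 3.71 to 3.98 in EWD lymph node metastases, and adipocyte means 2.93 to 2.98 in E and 3.05 to 3.16 in EWD, without overlap. In primary tumors the E and EWD ranges did not overlap for T and NK cells (2.74 to 2.93 in E, 2.55 to 2.61 in EWD), B cells (3.09 to 3.43 in E, 2.88 to 3.06 in EWD) and myeloid cells (2.90 to 2.93 in E, 2.60 to 2.85 in EWD). The T and NK cell means and the myeloid means lay near the array medians. As deposited, E and EWD did not overlap in 60.9% of all genes in primary tumors and in 9.93% in lymph node metastases. Basal means were 4.63 to 5.10 in E and 3.64 to 4.79 in EWD primary tumors. Fibroblast means lay between 3.30 and 3.74 and endothelial means between 3.16 and 4.03 on all arrays, and E and EWD overlapped at both sites.

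Technical signals also moved with the pellet in primary tumors. The difference between the 3' and 5' GAPDH probe sets, a measure of how far RNA is shortened toward its 3' end, was 3.15 and 3.73 in E and 4.62 and 5.87 in EWD primary tumors. The mean of the hybridization controls was 9.62 and 10.55 in E and 12.47 and 12.33 in EWD primary tumors. In lymph node metastases both overlapped, with 3.90 to 4.33 in E and 3.84 to 4.39 in EWD for GAPDH, and 9.65 to 12.04 in E and 9.47 to 12.31 in EWD for the controls. Within primary tumors these signals and the pellet cannot be told apart. With the control mean as a covariate over all 10 arrays, the primary tumor difference was -3.01 for MUC1 (limma adjusted p 0.000957) and -1.56 for ST6GALNAC2 (0.00532). Of all 17170 genes it called 5994 in primary tumors, against 1342 without the covariate. The control means of E and EWD did not overlap there, so the covariate cannot separate them from the pellet. That fit used the deposited values and was not repeated after quantile normalization. The part of the marker levels in the results below was not tested, and fewer cells of a type and less RNA per cell cannot be told apart.

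MUC1 had a lower signal with estrogen at both sites, a difference that passed the test in primary tumors and on average over the sites. In lymph node metastases its log2 signal was 9.19, 9.02 and 9.63 in E mice 6, 11 and 14, against 11.74, 11.10 and 11.87 in EWD mice 9, 10 and 19. In primary tumors it was 7.39 and 7.38 in E mice 11 and 14, against 10.26 and 10.36 in EWD mice 10 and 19. The groups did not overlap at either site, and every E array lay below every EWD array of the other site as well.

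The E minus EWD difference of MUC1 in lymph node metastases was -2.29 ± 0.26 (SE; 95% confidence interval -2.88 to -1.70), a 4.88-fold lower signal, with group means of 9.28 ± 0.31 (SD, n = 3) and 11.57 ± 0.41 (n = 3). By limma with Benjamini-Hochberg adjustment over all genes the adjusted p was 0.0875, above the threshold of 0.05, although its unadjusted p ranked 2 of 17170. In primary tumors the difference was -2.92 ± 0.32 (interval -3.64 to -2.20), 7.59-fold, with a limma adjusted p of 0.0060. After quantile normalization it was -2.09 in lymph node metastases (adjusted p 0.0802) and -1.73 in primary tumors (adjusted p 0.0427), so the primary tumor call held while its size on the linear scale dropped to 3.31-fold. The primary tumor call ended without E mouse 11 (limma adjusted p 0.0636) or without EWD mouse 19 (0.0592), which leave 1 array in a group.

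A second MUC1 probe set gave the same direction. Its signal was 6.55, 6.33 and 6.53 in E and 9.26, 8.41 and 9.17 in EWD lymph node metastases, and 4.88 and 4.73 in E and 7.18 and 7.63 in EWD primary tumors. Fitted with every probe set separately, it differed by -2.48 in lymph node metastases (limma adjusted p 0.0981) and by -2.59 in primary tumors (0.0139). Both MUC1 probe sets thus put E below EWD on every array of a site. The fit that averages the probe sets of a gene called MUC1 in lymph node metastases (-2.38, limma adjusted p 0.0385), as did the fit with the hybridization control signal as a covariate (-2.28, 0.0467).

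**Figure D1:**
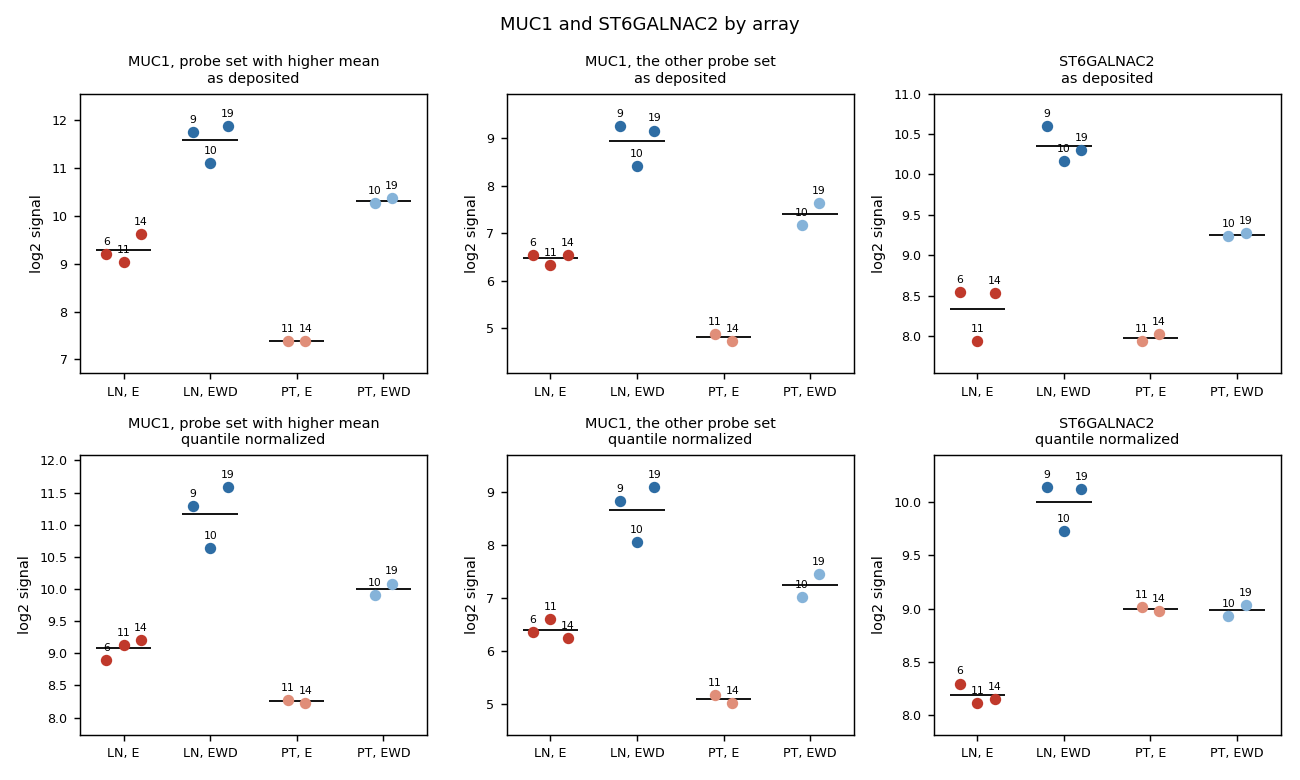
Log2 signal of both MUC1 probe sets and of ST6GALNAC2 on each of the 10 arrays, as deposited (upper row) and after quantile normalization (lower row). Points are arrays labelled by mouse number, bars are group means, LN is lymph node metastasis and PT primary tumor. MUC1 lies lower in E than in EWD in all panels, while ST6GALNAC2 in primary tumors does so only as deposited (7.94 and 8.02 in E, 9.23 and 9.28 in EWD).

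ST6GALNAC2 had the lowest p of all genes for its lower signal with estrogen in lymph node metastases, although it missed the adjusted threshold, and its primary tumor difference depended on the scale. Its log2 signal was 8.55, 7.94 and 8.53 in E, against 10.60, 10.17 and 10.30 in EWD lymph node metastases. In primary tumors it was 7.94 and 8.02 in E, against 9.23 and 9.28 in EWD. As deposited, the groups did not overlap at either site.

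In lymph node metastases the E minus EWD difference of ST6GALNAC2 was -2.02 ± 0.23 (interval -2.53 to -1.50), 4.05-fold, with the smallest unadjusted p of the 17170 genes and a limma adjusted p of 0.0875. After quantile normalization it was -1.81 (limma adjusted p 0.0802), again the smallest p. It was called in 3 alternative fits, namely without E mouse 11 (-1.82, limma adjusted p 0.0405), with probe sets averaged (-2.02, 0.0385) and with the hybridization covariate (adjusted p 0.0285). ST6GALNAC2 has 1 probe set, so averaging left its values and difference unchanged. Only its SE (0.197 against 0.226) and the genes tested (16638) changed, so that call is no separate support.

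In primary tumors the deposited difference of ST6GALNAC2 was -1.27 ± 0.28 (interval -1.90 to -0.64), with a limma adjusted p of 0.0311. After quantile normalization its signal was 9.02 and 8.98 in E, against 8.94 and 9.03 in EWD primary tumors, a difference of 0.02 (interval -0.50 to 0.54, limma adjusted p 0.976). The E and EWD groups then overlapped and the sign turned. The deposited call also ended under 6 of the 10 fits that each left out 1 array, those without lymph node mouse 6 or 10 or any of the 4 primary tumor arrays (limma adjusted p 0.0531 to 0.135). Within its own array, the probe set stood at percentiles 94.2 to 94.6 in E and 97.4 to 97.9 in EWD lymph node metastases, but at 96.2 in both E and 96.1 to 96.3 in both EWD primary tumors.

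Of the 9 genes, 0 were called in lymph node metastases, where limma called 0 of all genes (0%) and 5.84% had an unadjusted p under 0.05 (6.48% after quantile normalization), among them MUC1, ST6GALNAC2 and MUC20 on both scales. In primary tumors 2 of 9 were called, both lower, against 7.82% of all genes called, 6.94% lower and 0.879% higher. After quantile normalization 1 of 9 was called, MUC1, against 1.37% of all genes, 0.6% lower and 0.775% higher. The median E minus EWD difference over the 9 genes was -0.05 in lymph node metastases and -0.02 in primary tumors, and over all genes -0.02 and -0.10 (0.02 and 0.06 after quantile normalization). These shares depend on single arrays: the number of genes called in primary tumors was 1342 with all arrays, 5 without EWD mouse 19, 24 without E mouse 11, 172 without EWD mouse 10 and 516 without E mouse 14 in primary tumors. It was 3564, 1948, 711 and 520 without lymph node mice 11, 14, 6 and 10. Groups that did not overlap were no rarity in primary tumors, where 60.9% of genes had them, against 9.93% in lymph node metastases.

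The estrogen difference of MUC1 was not shown to differ between the sites. The lymph node difference minus the primary tumor difference was 0.64 (interval -0.31 to 1.58, limma adjusted p 0.647) as deposited and -0.37 (interval -1.31 to 0.57, adjusted p 0.900) after quantile normalization, so even the sign was not settled. For ST6GALNAC2 it was -0.75 (interval -1.57 to 0.08, adjusted p 0.516) as deposited and -1.83 (interval -2.52 to -1.14) after quantile normalization. That last value ranked 23 of 17167 genes by p and had a limma adjusted p of 0.155. By limma 0 of the 9 genes were called in this comparison, against 0.0116% of all genes as deposited and 0.00583% after quantile normalization. At an unadjusted p under 0.05 it held 10.8% of all genes and 0 of the 9 as deposited, and 6.37% of all genes and ST6GALNAC2 after quantile normalization.

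Averaged over both sites, MUC1 differed by -2.61 ± 0.20 between E and EWD (limma adjusted p 0.0048), the smallest unadjusted p of all genes, and ST6GALNAC2 by -1.64 ± 0.18 (0.0065). After quantile normalization the averages were -1.91 (limma adjusted p 0.0084) and -0.90 (0.0213). These 2 of the 9 genes were called lower on both scales, against 8.01% of all genes called as deposited (7.04% lower, 0.978% higher) and 3.72% after quantile normalization (2.1% lower, 1.63% higher). The average for ST6GALNAC2 combines a lymph node difference of -1.81 with a primary tumor difference of 0.02 on the quantile scale. Its call ended without the primary tumor array of E mouse 11 (-1.65, limma adjusted p 0.0567).

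MUC1 was also higher in lymph node metastases than in primary tumors with E, as deposited. With E its means were 9.28 ± 0.31 (SD, n = 3) in lymph node metastases and 7.38 ± 0.004 (n = 2) in primary tumors, a difference of 1.89 ± 0.29 (limma adjusted p 0.0091). After EWD they were 11.57 ± 0.41 and 10.31 ± 0.07, a difference of 1.26 ± 0.29 (adjusted p 0.224). On the quantile scale the differences were 0.81 with E (limma adjusted p 0.310) and 1.18 after EWD (0.355), in the same direction and not called. The call with E also ended without the primary tumor of mouse 11 (1.95, adjusted p 0.0561) and with mouse as a fixed replicate block (1.94, adjusted p 0.149).

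MUC1 was the only one of the 9 genes called between sites with E, against 8.76% of all genes, 7.81% higher and 0.949% lower. On the quantile scale 0 of 9 were called by limma, against 0.507% of all genes, 0.0932% higher and 0.414% lower. After EWD, 0 of 9 and 0 of all genes (0%) were called by limma, while 10% of all genes (8.39% on the quantile scale), among them MUC1 and ST6GALNAC2 on both scales, had an unadjusted p under 0.05. ST6GALNAC2 after EWD differed by 1.11 (interval 0.52 to 1.69, limma adjusted p 0.223) and by 1.02 on the quantile scale. With E its site difference was 0.36 as deposited (adjusted p 0.461) and -0.81 on the quantile scale (adjusted p 0.170), so the direction between sites with E turned with the scaling. Averaged over pellet states, MUC1 (1.58, limma adjusted p 0.0079) and ST6GALNAC2 (0.73, 0.0453) were called higher, against 8.15% of all genes, 7.51% higher and 0.641% lower. The ST6GALNAC2 call was lost in 14 of 19 alternatives, among them 9 of the 10 fits that left out 1 array, all but the one without the lymph node array of E mouse 11 (limma adjusted p 0.0115 to 0.129). Neither was called on the quantile scale (adjusted p 0.0913 and 0.804), against 0.361% of all genes, 0.128% higher and 0.233% lower.

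**Figure D2:**
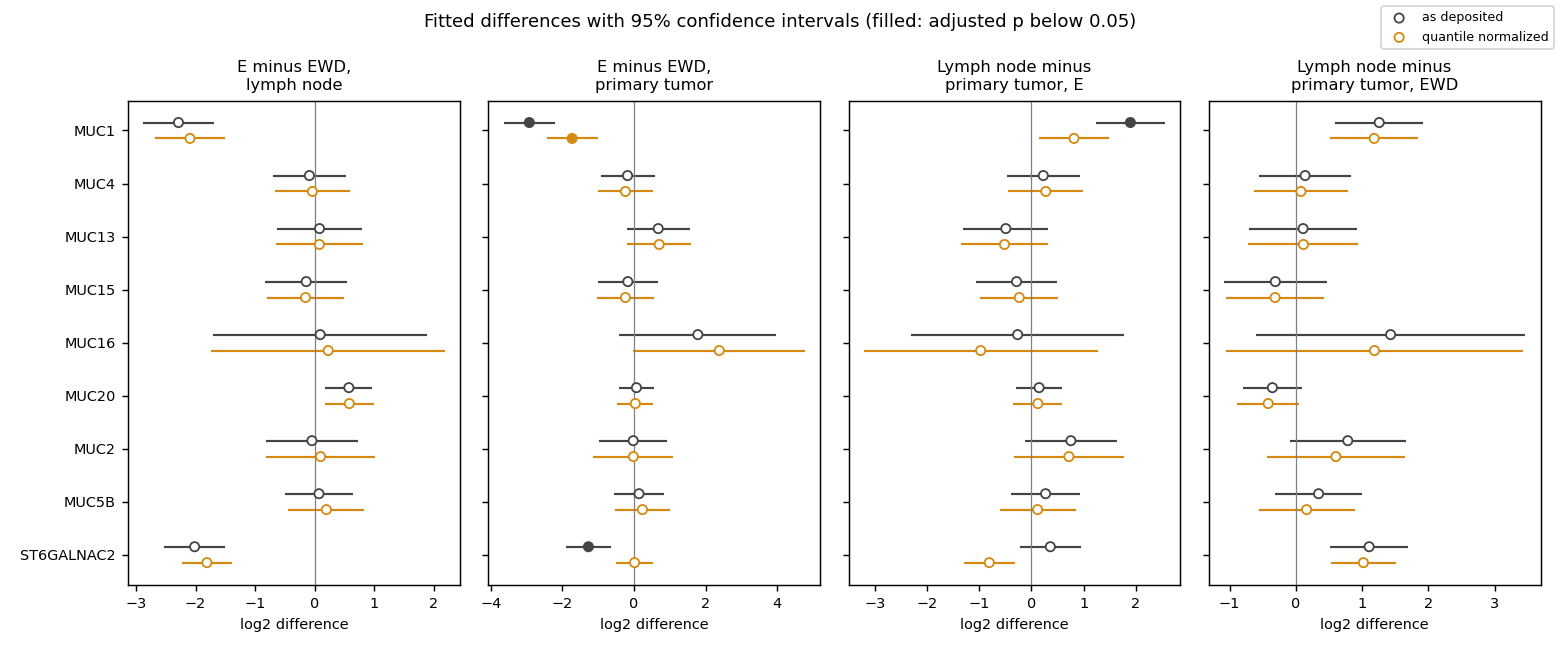
Fitted log2 differences of the 9 genes with 95% confidence intervals for E minus EWD at each site and lymph node minus primary tumor in each pellet state, as deposited (dark) and after quantile normalization (orange). Filled points have an adjusted p below 0.05. Only MUC1 and ST6GALNAC2 have filled points, and for ST6GALNAC2 in primary tumors the quantile value is 0.02.

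MUC16, the transmembrane mucin that carries the ovarian cancer antigen measured in blood, had the widest range of the other mucins. Its signal was 5.33, 8.21 and 4.75 in E mice 6, 11 and 14, against 5.82, 5.50 and 6.70 in EWD lymph node metastases. In primary tumors it was 6.43 and 6.26 in E, against 4.40 and 4.75 in EWD. The lymph node groups overlapped, with mouse 11 highest, and the primary tumor groups did not.

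The E minus EWD difference of MUC16 was 0.09 (interval -1.70 to 1.88) in lymph node metastases and 1.78 ± 0.96 (interval -0.41 to 3.98, limma adjusted p 0.284) in primary tumors, or 2.38 (adjusted p 0.237) on the quantile scale. When E mouse 11 was left out in lymph node metastases, the MUC16 difference there was -0.96 (adjusted p 0.667) and the difference of site responses -2.74 (limma adjusted p 0.0232). The primary tumor difference stayed at 1.78 and was then called (0.0156), and lymph node metastases were lower than primary tumors with E (-1.31, 0.0464). Of all 17170 genes that fit called 1543 in the difference of responses, 3564 in primary tumors and 3850 between sites with E. With the hybridization covariate MUC16 differed by 3.34 in primary tumors (limma adjusted p 0.0121), by -3.35 between the site responses (0.0300), and by 2.66 between sites after EWD (0.0320). The covariate fit called 5994, 4049 and 2276 of all 17170 genes in these comparisons, so such calls were common there. The lymph node array of mouse 11 also had the highest means among lymph node arrays of the myeloid markers (3.42, others 2.71 to 2.87), the endothelial markers (4.03, others 3.16 to 3.59) and the basal markers (5.07, others 3.71 to 4.14). Their part in the MUC16 values was not tested.

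MUC20 was the other gene with an unadjusted p under 0.05 between E and EWD in lymph node metastases. Its signal was 3.49, 3.66 and 3.48 in E, against 2.84, 3.11 and 2.97 in EWD lymph node metastases, and 3.34 and 3.45 in E, against 3.35 and 3.30 in EWD primary tumors. The lymph node groups did not overlap, and the E minus EWD difference was 0.57 ± 0.17 (unadjusted p 0.0096, limma adjusted p 0.587). The primary tumor difference was 0.07 (interval -0.41 to 0.55). MUC20 has near-identical copies in the human genome, so its 6 probe sets may share signal with them, and with the probe sets averaged the lymph node difference was 0.07.

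MUC2 is the main gel-forming mucin of the intestine. Its signal was 4.27, 5.28 and 3.80 in E lymph node metastases, against 3.65 and 3.73 in E primary tumors. After EWD it was 4.63, 4.40 and 4.46 in lymph node metastases, against 3.69 and 3.74 in primary tumors. As deposited, all 6 lymph node arrays lay above all 4 primary tumor arrays. After quantile normalization lymph node E mouse 14 had 3.725, below the 3.730 to 3.788 of the primary tumor arrays, so the sites overlapped. On the deposited scale, sites did not overlap in 38% of all genes with E and in 31% after EWD.

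Averaged over pellet states, the lymph node minus primary tumor difference of MUC2 was 0.77 ± 0.27 (unadjusted p 0.0207, limma adjusted p 0.126), and 0.66 on the quantile scale (adjusted p 0.398). Its E minus EWD differences were -0.05 in lymph node metastases (0.10 on the quantile scale) and -0.02 in primary tumors. MUC5B, a gel-forming mucin of airways and glands, had 4.57, 4.76 and 3.98 in E, against 4.35, 4.68 and 4.09 in EWD lymph node metastases, and 4.11 and 4.24 in E, against 3.97 and 4.08 in EWD primary tumors. Its differences were 0.07 and 0.14, with intervals from -0.56 to 0.85 covering both. A further 3 probe sets carry both MUC5B and MUC5AC and were left out, with signals between 2.09 and 5.95.

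MUC4, MUC13 and MUC15 had signals near the array medians, and their 95% intervals for E minus EWD all held 0. MUC4, a transmembrane mucin that partners ERBB2, lay between 2.41 and 3.28 on the probe set used and differed by -0.09 in lymph node metastases and -0.18 in primary tumors, with the opposite sign when its 5 probe sets were averaged (0.07 and 0.02). MUC15 lay between 2.12 and 3.23 and differed by -0.15 and -0.17. MUC13, a transmembrane mucin of the gut, lay between 2.43 and 3.85, and its primary tumor difference of 0.68 (limma adjusted p 0.310) rested on 1 array: 2.64 and 3.85 in E mice 11 and 14, against 2.43 and 2.71 in EWD. Without E mouse 14 it was 0.05.

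**Figure D3:**
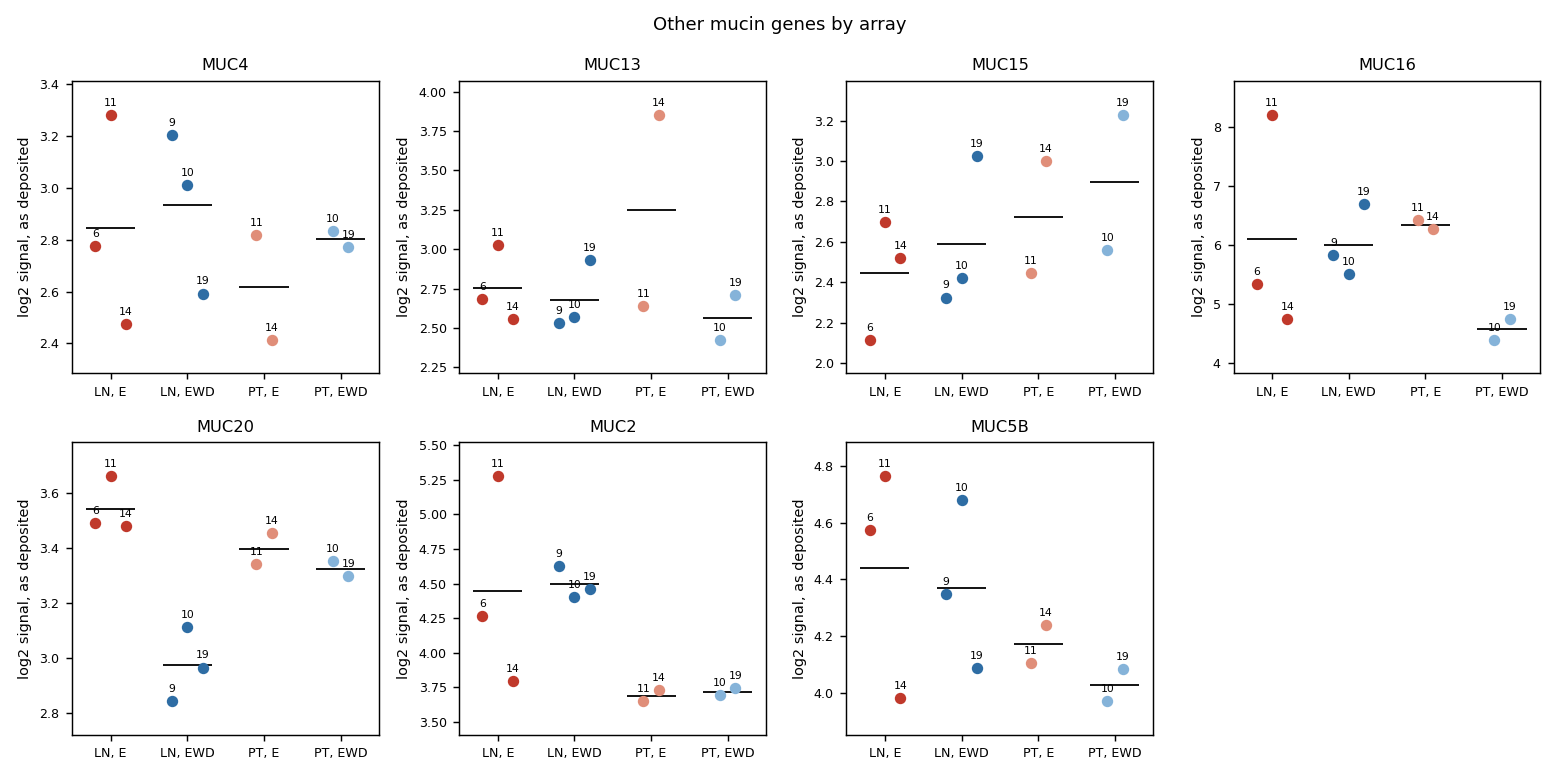
Log2 signal, as deposited, of the probe set used for each of the other 7 mucin genes on the 10 arrays, with group means as bars and mouse numbers beside the points. MUC16 in lymph node mouse 11 (8.21) stands above the other arrays, and MUC20 separates E from EWD in lymph node metastases. MUC2 separates lymph node metastases from primary tumors on this scale, but not after quantile normalization.

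Among 16 other mucins and mucin-like proteins tested, 0 were called in lymph node metastases, as of all genes (0%). In primary tumors 1 was higher and 2 were lower with E (median difference 0.24), where 0.879% of all genes were higher and 6.94% lower. MUC5AC, a gel-forming mucin of stomach and airways, had 7.70 and 7.60 in E, against 4.05 and 4.70 in EWD primary tumors. It was higher by 3.26 ± 0.50 (limma adjusted p 0.0137), by 4.16 on the quantile scale (0.0182), and 4 of its 5 probe sets had that sign. In lymph node metastases it had 3.60, 4.01 and 4.09 in E, against 3.54, 3.78 and 5.12 in EWD, which overlapped. The probe sets shared with MUC5B differed less in primary tumors. Their values were 5.36 and 5.66 in E against 5.02 and 5.88 in EWD, which overlapped. The others had 4.85 and 5.28 against 4.48 and 4.77, and 2.95 and 3.00 against 2.09 and 2.52.

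CD164, a sialomucin of the cell surface and endosomes, had 9.21 and 9.72 in E, against 12.07 and 12.49 in EWD primary tumors. It was lower by a difference of -2.82 (limma adjusted p 0.0060), and on the quantile scale the difference was -1.04 and not called (0.0926). PODXL, the sialomucin podocalyxin, was lower by a difference of -2.99 (limma adjusted p 0.0340), and -1.55 on the quantile scale (0.152). MUC3A, an intestinal transmembrane mucin, was not called as deposited (1.92, adjusted p 0.0624) and was called higher on the quantile scale (3.58, 0.0427), and all 9 of its probe sets had that sign.

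The lists of enzymes that build the glycans had counts close to the share of all genes called in primary tumors (7.82%). Of 17 genes of O-GalNAc initiation tested, 1 was higher and 1 lower with E in primary tumors (median -0.07), against 0.879% of all genes higher and 6.94% lower. GALNT2, which starts O-glycans, had 6.85 and 6.59 in E, against 5.23 and 4.71 in EWD primary tumors, a difference of 1.75 (limma adjusted p 0.0189; 2.47 on the quantile scale, 0.0367), but only 2 of its 4 probe sets had that sign. GALNT10, of the same family, differed by -1.99 (limma adjusted p 0.0259; -1.29 on the quantile scale, 0.0821).

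Of 17 genes of core synthesis and extension, 1 was lower (median -0.11), near the 6.94% of all genes. It was C1GALT1C1, the chaperone of the core 1 enzyme, with 5.65 and 5.11 in E, against 7.76 and 7.27 in EWD primary tumors (-2.13, limma adjusted p 0.0250; -1.52 on the quantile scale, 0.0660). Of 21 genes of sialylation and sialic acid supply, 1 was lower (median -0.21), no more than the 6.94% of all genes. It was NANS, the sialic acid synthase, with 8.41 and 9.35 in E, against 11.69 and 11.89 in EWD (-2.91, limma adjusted p 0.0137; -1.23 on the quantile scale, 0.105). In lymph node metastases 0 genes of these lists were called.

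ST6GALNAC1, named here outside the selection rule and after its values were seen, had 2.53, 2.15 and 3.59 in E, against 5.11, 3.39 and 2.91 in EWD lymph node metastases. In primary tumors it had 2.42 and 2.45 in E, against 2.47 and 2.25 in EWD. The groups overlapped at both sites, and the lymph node difference was -1.05 (interval -2.33 to 0.24, limma adjusted p 0.910).

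**Figure D4:**
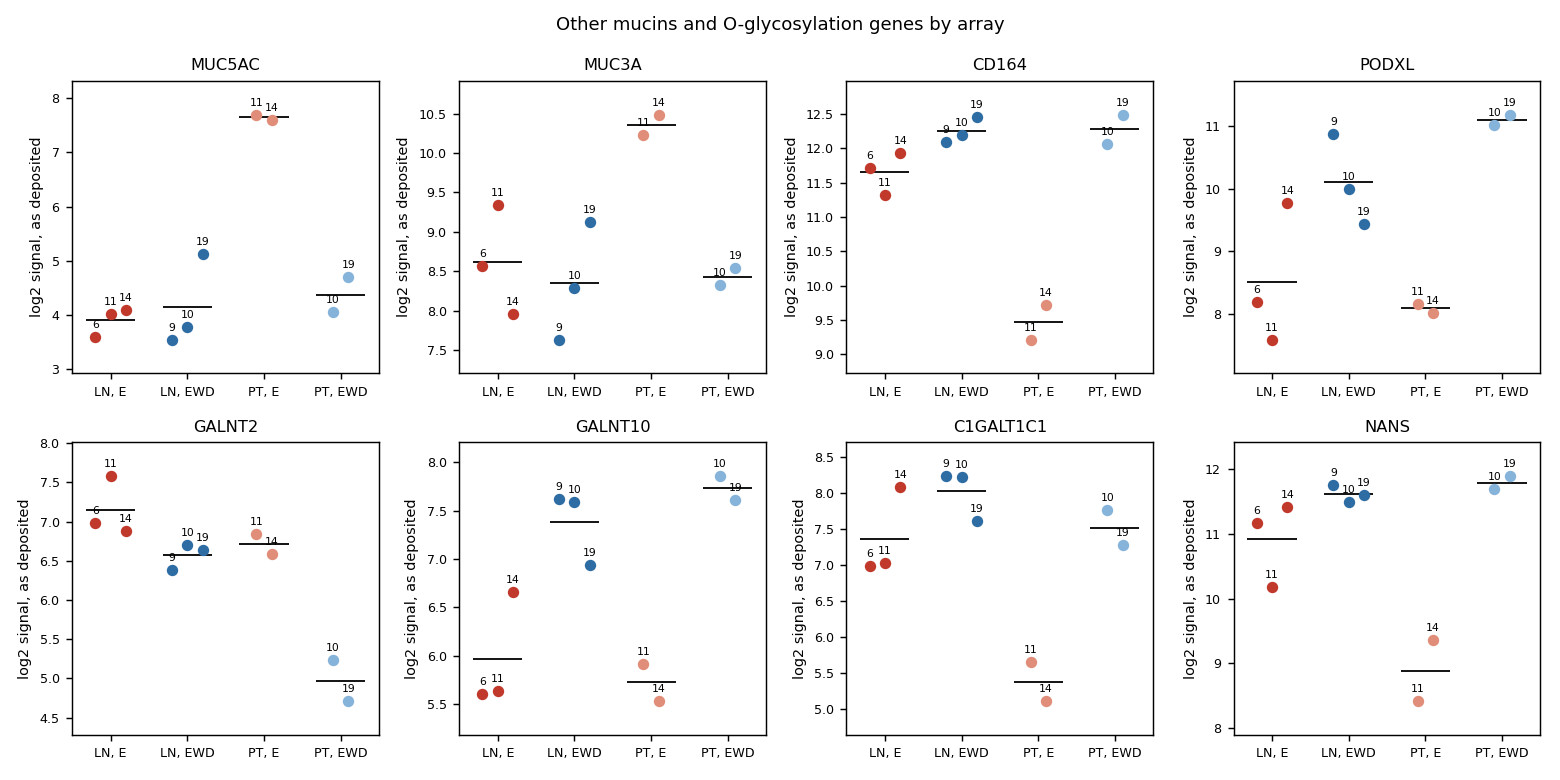
Log2 signal, as deposited, of 4 other mucins and 4 O-glycosylation genes on the 10 arrays, with group means as bars and mouse numbers beside the points. MUC5AC is high in both E primary tumors (7.70 and 7.60), where CD164, C1GALT1C1 and NANS are low.

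Secretory mucus factors and mucin partners were read in the same way. Of 21 secretory factors, 2 were higher and 4 lower with E in primary tumors (median -0.25), against 0.879% of all genes higher and 6.94% lower. PIGR, the receptor that carries polymeric immunoglobulins across epithelium, had 9.91 and 8.06 in E, against 4.61 and 4.17 in EWD primary tumors (4.60, limma adjusted p 0.0091; 5.91 on the quantile scale, 0.0166). TFF2, a trefoil peptide, had 3.57 and 3.01 in E, against 5.25 and 4.78 in EWD (-1.72, limma adjusted p 0.0141; -1.73 on the quantile scale, 0.0381). The other 4 were FOXA2 (1.03), SYTL2 (-3.43), RAB3D (-1.85) and ZG16B (-1.26), and none of these 4 was called on the quantile scale (limma adjusted p 0.0609 to 0.173). RAB3D is named only to complete this count.

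Of 16 mucin partners and sheddases, 1 was higher and 3 lower (median -0.04), against 0.879% of all genes higher and 6.94% lower. EGFR, a receptor kinase that binds MUC1, had 12.58 and 11.64 in E, against 6.15 and 6.33 in EWD primary tumors (5.87, limma adjusted p 0.0163; 6.95 on the quantile scale, 0.0323). LGALS3, a galectin that binds MUC1 glycans, had 9.11 and 9.35 in E, against 12.10 and 12.52 in EWD (-3.08, limma adjusted p 0.0173). GRB2 (-2.28) and CTNNB1 (-2.05), adaptor and junction proteins that bind the MUC1 tail, were the other lower ones. Of these 4, EGFR alone was called on the quantile scale.

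Between sites with E, the lists gave MUC5AC (-3.75), PIGR (-4.59) and EGFR (-6.73) as lower in lymph node metastases than in primary tumors, on both scales by limma. CD164 (2.19), GALNT14 (1.27), C1GALT1C1 (1.98), B3GNT2 (1.84), NANS (2.04), TFF1 (1.74), GRB2 (2.16) and CTNNB1 (1.94) were higher as deposited and were not called on the quantile scale. This comparison shares the E arrays with the E minus EWD comparisons. After EWD, 0 genes of these lists were called between sites.

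The profiles most like that of MUC1 over the 10 arrays, by the root mean square distance of mean-centred log2 values, were RNF43 (0.47), GBP2 (0.48), CYP2J2 (0.49), ATP2C2 (0.53) and SLC2A10 (0.53), against a spread of MUC1 itself of 1.60 (SD over arrays). RNF43 averaged 7.36 in E and 9.29 in EWD lymph node metastases, and 5.39 in E and 8.92 in EWD primary tumors. For ST6GALNAC2 they were ZG16B (0.19), CHST15 (0.31), DCAF11 (0.33), ASTN2 (0.34) and ADAM8 (0.37), against an SD of 1.02. ZG16B, a secreted lectin-like protein, averaged 5.03 in E and 6.87 in EWD lymph node metastases, and 4.69 in E and 5.95 in EWD primary tumors. On the quantile scale CHST15 (0.30) and DCAF11 (0.34) were again among the 5 nearest to ST6GALNAC2, and ATP2C2 (0.42) and GBP2 (0.43) among those nearest to MUC1. On that scale the SD over arrays was 0.75 for ST6GALNAC2 and 1.18 for MUC1. The distance between MUC1 and ST6GALNAC2 was 0.70 as deposited and 0.74 on the quantile scale, the latter close to the SD of ST6GALNAC2 itself. The deposited value is the smallest distance of ST6GALNAC2 to any of the other 8 genes as deposited, while MUC15 (0.73) was slightly nearer than MUC1 on the quantile scale. All arrays of a group share their treatment, so these distances describe the 10 arrays and carry no test.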

How the data were processed

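The values are the deposited log2 signals, 1 per probe set and array, which the authors made with Partek and RMA per the submitters' processing notes, with no version given there. RMA corrects background, normalizes and summarizes probes. Genes were taken from probe sets with exactly 1 symbol in the platform annotation (44532 of 61359; 1492 had several), without 62 controls, and each gene was read from its brightest such probe set on average. The filter required a mean signal of 2.311 or more, the lower quartile of the probe set means. limma 3.58.1 in R 4.3.3 fitted 1 mean per group to all 10 arrays with mouse as a random block (consensus correlation -0.04), then eBayes and Benjamini-Hochberg adjustment. Genes under an adjusted p of 0.05 were called. The labels' mouse numbers pair both sites of 4 mice, and the deviations of paired arrays from group means correlated at 0.176, -0.21, -0.21 and 0.0831 across genes in mice 10, 11, 14 and 19. The fit was also run on simulated data with independent arrays. These had neither correlation within mice nor the narrower range of the E primary tumor arrays, so they do not test those features.

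The members and gene lists were chosen with earlier results of these data known. The text names all members, up to 4 called genes per list and comparison by absolute t, and the 5 nearest profiles of MUC1 and ST6GALNAC2. Alternatives were quantile normalization, no filter, probe sets averaged or fitted separately, no replicate block, a fixed mouse block, trend and robust variance, a covariate of the mean of 18 hybridization controls, and leaving out each array. Quantile normalization without a filter was added after seeing the data.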

Additional observations from a re-analysis of the deposited data

How the results depend on the processing

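Direction and side of the threshold held in 1041 of 1161 gene values over the alternatives, and in 96 of 129 for the 7 differences called as deposited, where 31 lost the call and 2 turned sign. After quantile normalization the number of the 9 genes called was 1 for E minus EWD in primary tumors, 0 for lymph node minus primary tumor with E and 0 for its mean over pellet states, with or without the filter. Signs turned there for ST6GALNAC2 in primary tumors (0.018) and between sites with E (-0.81), for MUC1 in the difference of responses (-0.37), and for MUC2 in lymph node metastases (0.10), in the difference of responses (0.11) and in the mean E minus EWD (0.039). With probe sets averaged, 2 genes were called in lymph node metastases, and signs turned for MUC4 (0.065 in lymph node metastases, 0.024 in primary tumors, 0.045 on average) and for MUC20 between sites with E (-0.067). Trend and robust variance called 1 gene in primary tumors and 1 for the mean site difference, and so did fitting all probe sets separately for that mean.

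The hybridization covariate called 2 genes in lymph node metastases and 4 in primary tumors. It called 1 in the difference of responses and 2 between sites after EWD. Of all 17170 genes it called 6 in lymph node metastases, 5994 in primary tumors, 4049 in the difference of responses and 2276 after EWD. Calls outside lymph node metastases were thus common in this fit. The primary tumor calls included MUC13 (1.24, limma adjusted p 0.0458), whose main difference there rested on 1 array. Signs turned for MUC16 in lymph node metastases (-0.00072), for MUC15 in primary tumors (0.26), in the difference of responses (-0.43), between sites after EWD (0.047) and on average for E (0.045), and for MUC2 in primary tumors (0.44) and on average for E (0.18). With mouse as a fixed replicate block, 0 genes were called between sites with E and 0 on average, where limma had called 1 and 2, and the signs of MUC16 with E (0.13) and MUC4 after EWD (-0.0002) turned. Without any replicate block no count of called members moved. The cause of these changes was not tested.

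Leaving out each array gave 0 to 1 called genes in lymph node metastases, 0 to 3 in primary tumors, 0 to 1 in the difference of responses, 0 to 2 between sites with E, 0 to 0 after EWD, 1 to 2 for mean E minus EWD and 1 to 3 for the mean site difference. Counts of all genes called without 1 lymph node array were 0 to 9 in lymph node metastases and 520 to 3564 in primary tumors. They were 0 to 1543 in the difference of responses, 394 to 3850 between sites with E and 0 to 42 after EWD. Signs of differences turned within the following ranges. In lymph node metastases they were -0.31 to 0.091 for MUC4, -0.064 to 0.21 for MUC13, -0.28 to 0.088 for MUC15, -0.96 to 0.76 for MUC16, -0.47 to 0.28 for MUC2 and -0.094 to 0.30 for MUC5B. In primary tumors they were -0.55 to 0.21 for MUC15 and -0.19 to 0.10 for MUC2. In the difference of responses they were -0.12 to 0.28 for MUC4, -1.25 to 0.032 for MUC13, -0.36 to 0.40 for MUC15, -0.44 to 0.31 for MUC2 and -0.24 to 0.15 for MUC5B. Between sites with E they were -1.12 to 0.15 for MUC13, -0.54 to 0.034 for MUC15 and -1.31 to 0.43 for MUC16. After EWD they were -0.0002 to 0.31 for MUC4, -0.066 to 0.27 for MUC13 and -0.70 to 0.054 for MUC15. For mean E minus EWD they were -0.35 to 0.033 for MUC15 and -0.25 to 0.12 for MUC2, and for the mean site difference -0.50 to 0.14 for MUC13. A fit without 1 of 2 primary tumor arrays assumes that the lone array varies like the other groups.

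Over all genes, E minus EWD in primary tumors had 1342 calls as deposited, 236 after quantile normalization, 694 with probe sets averaged, 812 with all probe sets fitted, 5994 with the covariate and 5 to 3564 without 1 array. Lymph node minus primary tumor with E had 1504, and 87, 843, 1110 and 4982 under those alternatives, 181 to 3850 without 1 array, and 0 with the fixed block. Mean E minus EWD had 1376 and 15 to 2717 without 1 array, and the mean site difference 1400 and 242 to 3162.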
